A study of Mus musculus with 6 samples.

Results

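The miRNAs miR-204, miR-211, miR-448 and miR-1298, which are known from the choroid plexus, were measured in small RNA libraries of mouse brain. These 4 miRNAs were picked with earlier results of these data known, and their rows were then matched by name alone. Every row whose name starts with 1 of them was taken. This gave 6 of 622 mature miRNA names, namely mmu-miR-204-5p, mmu-miR-211-5p, mmu-miR-1298-5p, mmu-miR-1298-3p, mmu-miR-448-3p and mmu-miR-448-5p, written from here on without the species prefix. The suffix gives the arm of the hairpin that the mature strand comes from. The tissue was brain from the inbred strain C57BL/6J, and a sham group was compared with a group given ischemia-reperfusion, with 3 libraries in each. In the second group, labelled GCI, both carotid arteries were ligated for 20 minutes; the sham group has no treatment in its label. The sources used here do not state the mice's age, the reperfusion time or the brain region, nor how far the dissected tissue held choroid plexus. The libraries are named Sham 3, Sham 6 and Sham 7, and GCI 1, GCI 2 and GCI 3, and no label states that each is a separate animal.

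The choroid plexus is the epithelium in the brain ventricles that secretes cerebrospinal fluid and forms the barrier between blood and that fluid. Its cells express the serotonin receptor gene Htr2c, whose introns hold miR-448 and miR-1298, and the ion channel gene Trpm3, whose intron holds miR-204. miR-204 is also abundant in the retinal pigment epithelium and lens, and its close relative miR-211, from an intron of Trpm1, is known from melanocytes. A miRNA recognises target mRNAs mainly through its seed, bases 2 to 8 from the 5′ end. An intronic miRNA is often, though not always, made from its host gene's transcript.

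The mature sequences are shown because they decide which members can stand in for one another. They come from RefSeq (GRCm38.p6), in which all 6 members and 519 of the 622 names were found, and are written 5′ to 3′ with the seed in capitals.
miR-204-5p: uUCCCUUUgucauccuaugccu
miR-211-5p: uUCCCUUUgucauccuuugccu
miR-1298-5p: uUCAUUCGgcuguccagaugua
miR-1298-3p: cAUCUGGGcaacugauugaacu
miR-448-3p: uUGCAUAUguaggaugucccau
miR-448-5p: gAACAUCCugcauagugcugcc
miR-204-5p and miR-211-5p share the seed UCCCUUU and 21 of their 22 bases. The 1 difference is A17U, with positions counted from the 5′ end, miR-204-5p first. Among the 519 names with a sequence, no other name had this seed, and none shared a seed with the miR-1298 or miR-448 arms. The sources used here do not state whether reads with a mismatch were counted, so some miR-211-5p counts may be reads of miR-204-5p.

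All hairpins lie in introns of protein-coding genes on the same strand, the plus strand, in GENCODE vM21 (GRCm38; the authors' own build is not stated). Mir204 lies at chromosome 19, 22750605 to 22750672, in Trpm3. Mir211 lies at chromosome 7, 64205806 to 64205911, in Trpm1. Mir1298 (chromosome X, 147064905 to 147065002) and Mir448 (chromosome X, 147158210 to 147158321) lie 93.4 kb apart from end to end within Htr2c. Mir764, Mir1912 and Mir1264, the other miRNA hairpins looked up in Htr2c, lie upstream of Mir1298. The hairpins of the Htr2c pair follow with the measured arms in capitals.
Mir1298: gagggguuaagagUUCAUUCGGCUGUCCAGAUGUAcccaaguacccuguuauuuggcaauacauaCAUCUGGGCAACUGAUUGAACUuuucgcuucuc
Mir448: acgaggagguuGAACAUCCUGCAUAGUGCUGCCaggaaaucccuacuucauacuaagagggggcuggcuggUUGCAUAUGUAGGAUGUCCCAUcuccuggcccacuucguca
Each of these hairpins gave counts from both arms, but the abundant arm is the 5p arm in miR-1298 and the 3p arm in miR-448.

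Levels are in CPM, counts scaled to a common library size, with the TMM method. Libraries held 1423905 to 2023475 counts over the 622 names, and 3 counts, taken as the upper limit for a reading of 0, equal 1.45 to 2.05 CPM on the TMM-scaled sizes. Counting intervals here ignore PCR duplication. Together the members held 1882 to 2189 CPM in sham libraries and 2157 to 2458 CPM after ischemia-reperfusion, ranges that overlap. miR-1298-5p was the most abundant in every library, placed 63 to 73 among the 622 names, followed by miR-204-5p, placed 102 to 128, in every library but GCI 1, where miR-448-3p stood above it. In sham brain miR-448-3p and miR-1298-3p came next and overlapped in range. miR-211-5p and miR-448-5p were rare, with 77 and 43 counts in all libraries together. All 6 mature strands have 22 bases, but adapter ligation favours some end sequences, so the order between miRNAs is less certain than the same miRNA's change between libraries.

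**Figure D1:**
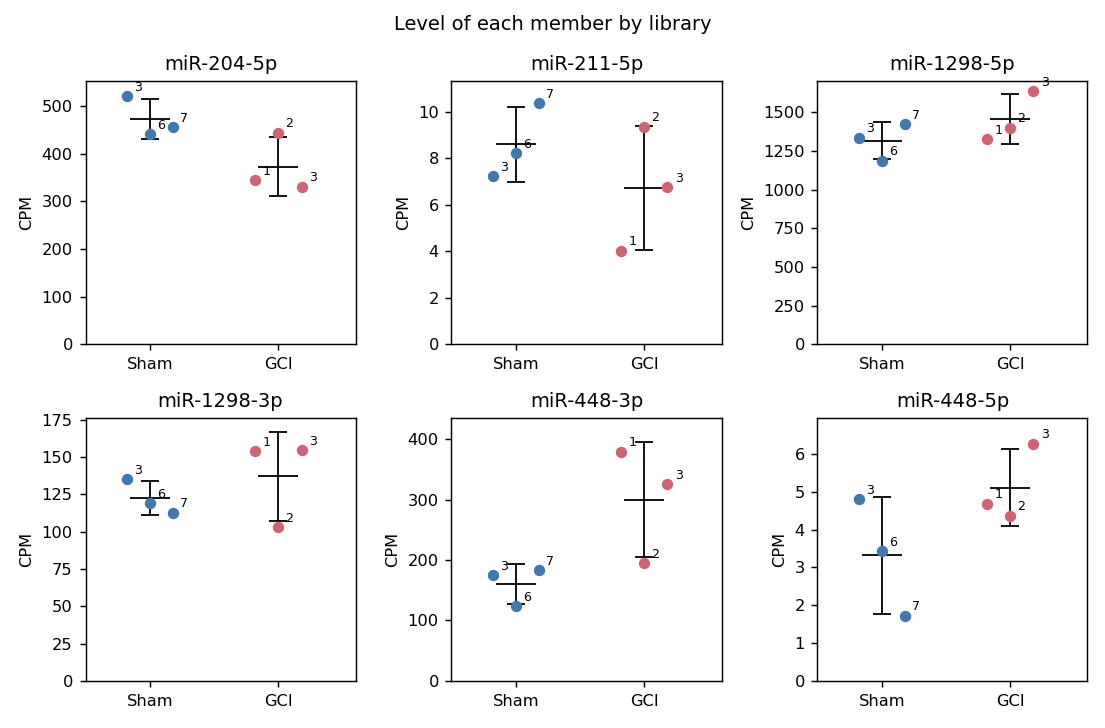
Level in CPM (y axis, from 0) of the 6 members in the sham and GCI (ischemia-reperfusion) libraries; each point is 1 library with its number, and the bar and whiskers are the mean and SD of 3. Of the 6, miR-448-3p is the one whose groups do not overlap, with GCI 2 just above the highest sham library.

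Of the 6 members, 5 passed the filter on low counts, and none passed the threshold (edgeR quasi-likelihood test, Benjamini-Hochberg adjusted p under 0.05 over all 440 tested miRNAs). Over all tested miRNAs, 10 passed (2.27%), all higher after ischemia-reperfusion; leaving out Sham 6 or GCI 3 left 0, leaving out GCI 1 left 1, and leaving out GCI 2 gave 100. At an unadjusted p under 0.05 edgeR gave 1 member, miR-448-3p, against 16.8% of all tested miRNAs. DESeq2 and limma-voom also called 0 members. All tested miRNAs together had a median of −0.054 on the log2 scale. In bulk tissue, fewer cells of a type and less of a miRNA per cell cannot be told apart.

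miR-448-3p had the widest gap between the groups. Its level was 175, 123 and 184 CPM in Sham 3, Sham 6 and Sham 7 (291, 180 and 319 counts) and 379, 194 and 326 CPM in GCI 1, GCI 2 and GCI 3 (566, 312 and 675 counts). The groups do not overlap, but GCI 2 was close to Sham 3 and Sham 7. Among all tested miRNAs, 10.2% had groups without overlap and a higher level after ischemia-reperfusion, so this is not rare in these libraries. The means were 161 ± 32.6 and 299.7 ± 94.9 CPM (SD, n = 3 each). The log2 fold change of 0.90 ± 0.28 (SE), a 1.87-fold difference with a 95% interval of 1.20 to 2.91, missed the threshold (Benjamini-Hochberg adjusted p = 0.157, edgeR quasi-likelihood). It placed 31 among the 440 tested miRNAs by p. The exact permutation p, two-sided, was 0.1, which is the floor for 3 against 3. Without GCI 2 the log2 fold change was 1.13 and passed (Benjamini-Hochberg adjusted p = 0.0104, edgeR), while without any other library the adjusted p was at least 0.299. Leaving out GCI 2 also raised the number of miRNAs called from 10 to 100, so this pass came with many others.

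The other arm of the same hairpin, miR-448-5p, was too rare for the filter. It had 8, 5 and 3 counts in Sham 3, Sham 6 and Sham 7 and 7, 7 and 13 counts in GCI 1, GCI 2 and GCI 3, and the groups overlapped. In the fit with no filter it differed by 0.66 on the log2 scale (edgeR over 622 names, Benjamini-Hochberg adjusted p = 0.567). At these counts a single library is imprecise: the exact Poisson 95% interval was 0.356 to 5.05 CPM in Sham 7 and 3.34 to 10.7 CPM in GCI 3.

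miR-204-5p had the lower mean after ischemia-reperfusion. It stood at 521, 442 and 456 CPM in Sham 3, Sham 6 and Sham 7 (868, 645 and 793 counts) and at 344, 444 and 331 CPM in GCI 1, GCI 2 and GCI 3 (514, 713 and 685 counts). GCI 1 and GCI 3 lay below every sham library, while GCI 2 lay within the sham range, so the groups overlapped. The means were 473 ± 42.5 and 373 ± 62.2 CPM (SD, n = 3 each). The fitted log2 difference was −0.34 ± 0.20 (Benjamini-Hochberg adjusted p = 0.381, edgeR), and its 95% interval runs from 0.576 to 1.08 times the sham level. The two-sided exact permutation p was 0.2. Without GCI 2 the log2 difference was −0.49 (adjusted p = 0.0824), the lowest adjusted p of any left-out library.

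miR-211-5p, with the same seed as miR-204-5p, was a small addition to it. Its counts were 12, 12 and 18 in Sham 3, Sham 6 and Sham 7 and 6, 15 and 14 in GCI 1, GCI 2 and GCI 3. In CPM these are 7.21, 8.21 and 10.4 against 4.02, 9.35 and 6.76, which overlap. The lowest value, in GCI 1, has an exact Poisson 95% interval of 1.47 to 8.74 CPM, which reaches sham values. The log2 difference was −0.35 ± 0.38 (Benjamini-Hochberg adjusted p = 0.638, edgeR), with a 95% interval of 0.434 to 1.42 times sham. miR-211-5p counts were 1.44% to 2.33% of miR-204-5p counts in sham libraries and 1.26% to 2.17% after ischemia-reperfusion. The sum of both, and so of their shared seed, was 450 to 529 CPM in sham libraries and 337 to 454 CPM after ischemia-reperfusion (two-sided exact permutation p = 0.2).

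miR-1298-5p, the most abundant member, had close means in the 2 groups. Its level was 1335, 1187 and 1424 CPM in Sham 3, Sham 6 and Sham 7 and 1325, 1401 and 1635 CPM in GCI 1, GCI 2 and GCI 3. GCI 3 lay above every sham library and the other GCI libraries lay within the sham range. The means of 1315 ± 120 and 1454 ± 161 CPM (SD, n = 3 each) gave a log2 difference of 0.14 ± 0.18 (Benjamini-Hochberg adjusted p = 0.690, edgeR). Its 95% interval, 0.829 to 1.47 times sham, covers both directions. The coefficient of variation was 9.11% in sham libraries and 11.1% after ischemia-reperfusion, against medians of 9.19% and 23.8% over the 216 tested miRNAs with a mean of at least 100 CPM. For miR-204-5p it was 8.99% and 16.7%, and for miR-448-3p 20.3% and 31.7%.

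miR-1298-3p, the passenger strand, measured 135, 119 and 113 CPM in Sham 3, Sham 6 and Sham 7 and 154, 103 and 154 CPM in GCI 1, GCI 2 and GCI 3. GCI 1 and GCI 3 were above the sham range and GCI 2 below it. The log2 difference was 0.16 ± 0.23 (Benjamini-Hochberg adjusted p = 0.705, edgeR), with a 95% interval of 0.788 to 1.59 times sham.

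**Figure D2:**
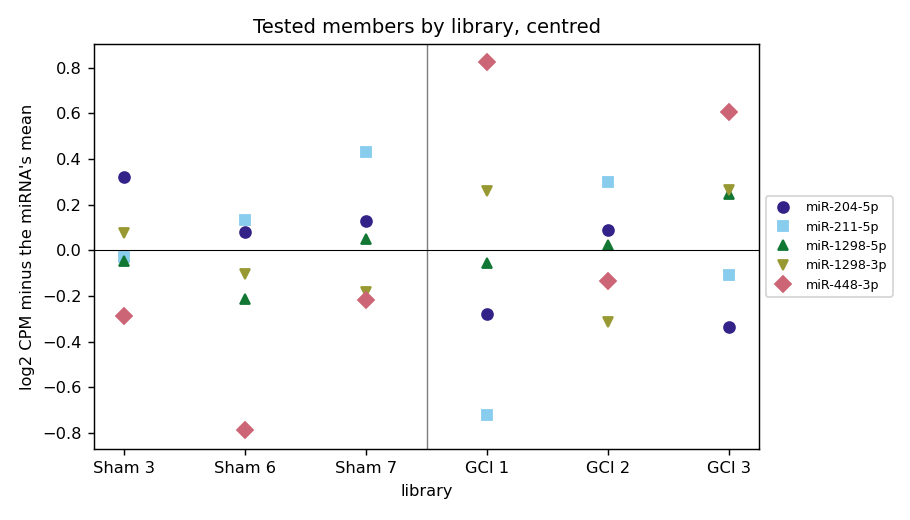
Log2 CPM of the 5 tested members in each library (x axis) after subtracting each miRNA's own mean over the 6 libraries (y axis); sham libraries are left of the line and GCI (ischemia-reperfusion) libraries right. In GCI 1 and GCI 3 miR-448-3p is 0.82 and 0.61 above its mean and miR-204-5p 0.28 and 0.34 below (values −0.28 and −0.34), while in GCI 2 miR-448-3p is at −0.14 and miR-204-5p at 0.089.

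Ratios within a library do not depend on how libraries are scaled to one another. In all 5 were compared, with 0.5 added to each count; the ratios with miR-448-3p and that of miR-204-5p to miR-211-5p were chosen after the values were seen. The 2 arms of miR-1298 had the same mean proportion in both groups. The 5p to 3p ratio was 9.86, 9.94 and 12.6 in Sham 3, Sham 6 and Sham 7 and 8.59, 13.6 and 10.6 in GCI 1, GCI 2 and GCI 3, with the same group mean of 3.42 on the log2 scale and overlapping groups (two-sided exact permutation p = 1).

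miR-448-3p and miR-1298-5p lie in the same host gene. Their ratio was chosen after the values were seen and sets the member with the largest rise against one with close group means. It thus largely restates the level of miR-448-3p. miR-448-3p amounted to 13.1%, 10.4% and 12.9% of miR-1298-5p in Sham 3, Sham 6 and Sham 7. After ischemia-reperfusion it amounted to 28.6%, 13.9% and 19.9% in GCI 1, GCI 2 and GCI 3. The groups do not overlap, although GCI 2 lies only just above Sham 3. The log2 ratio was higher by 0.72 after ischemia-reperfusion (means −3.05 ± 0.19 and −2.33 ± 0.52, SD, n = 3 each; two-sided exact permutation p = 0.1, 0.167 adjusted over the 5 ratios by Benjamini-Hochberg). With 3 against 3 libraries no p under 0.1 can be reached, so this test cannot call a difference. Leaving out GCI 1 lowered the difference to 0.46.

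The miR-448-3p to miR-204-5p ratio had the widest difference of the 5. It was chosen after the values were seen and sets the member with the largest rise against a member with a lower mean. A wide difference thus follows from the choice, and the adjustment over the 5 ratios does not cover other pairs that could have been chosen. miR-448-3p stood at 0.336, 0.280 and 0.403 times miR-204-5p in Sham 3, Sham 6 and Sham 7, and at 1.10, 0.438 and 0.985 times in GCI 1, GCI 2 and GCI 3. GCI 1 and GCI 3 thus held about as many counts of one as of the other, whereas GCI 2 was near Sham 7. The log2 ratio differed by 1.22 (two-sided exact permutation p = 0.1, adjusted 0.167). miR-1298-5p to miR-204-5p was 2.56, 2.69 and 3.12 in Sham 3, Sham 6 and Sham 7 and 3.85, 3.15 and 4.94 in GCI 1, GCI 2 and GCI 3. These groups also do not overlap, with GCI 2 only slightly above Sham 7 (log2 difference 0.49, two-sided exact permutation p = 0.1, adjusted 0.167). The ratios without overlap are all formed among miR-448-3p, miR-1298-5p and miR-204-5p, so they are not separate observations. Of single tested miRNAs, 21.8% had groups without overlap in either direction. The share among ratios of other miRNA pairs was not counted. The miR-204-5p to miR-211-5p ratio overlapped between the groups (log2 difference 0.054, two-sided exact permutation p = 0.8, adjusted 1).

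**Figure D3:**
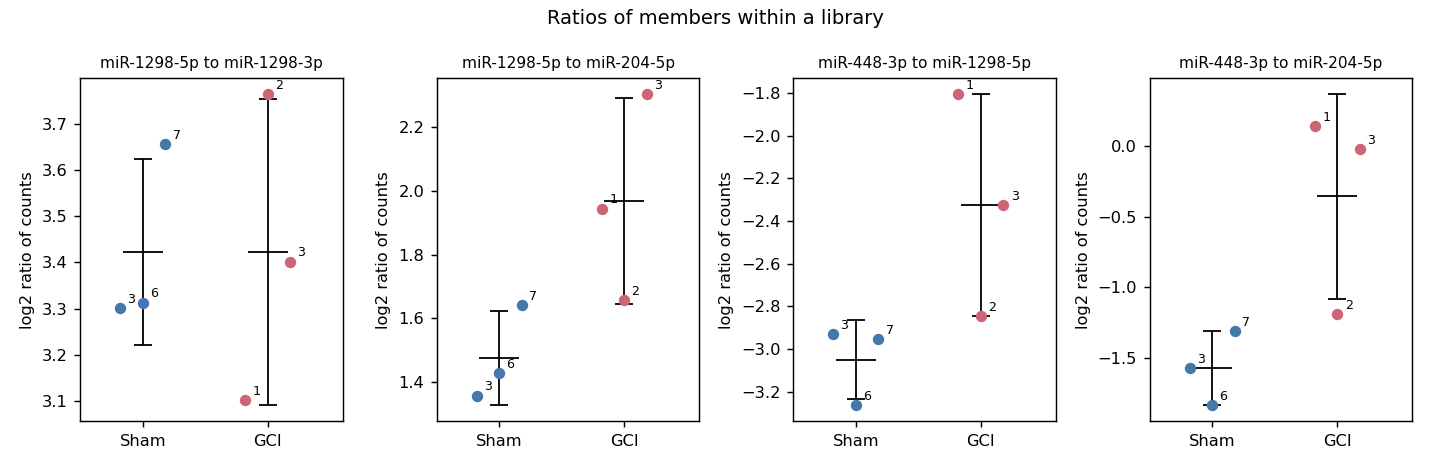
Log2 ratio of counts of 2 members within each library (y axes, not starting at 0) in the sham and GCI (ischemia-reperfusion) groups; points are libraries with their numbers, bars and whiskers the mean and SD of 3. The arms of miR-1298 overlap between groups, and in the other 3 panels all GCI libraries lie above all sham libraries, with GCI 2 nearest to sham.

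The list of Htr2c intron miRNAs holds both arms of 5 hairpins, of which 8 of 10 names were in the tables and 3 were tested. edgeR called 0 of the 3 (1 at an unadjusted p under 0.05), and so did DESeq2 and limma-voom. Their log2 differences were all above 0, with a median of 0.16, against 197 of 440 tested miRNAs above 0 and a median of −0.054. The 3 include both arms of miR-1298, so they do not stand for 3 separate hairpins. The names outside the members were all rare. miR-1264-5p had 8, 6 and 10 counts in Sham 3, Sham 6 and Sham 7 and 0, 4 and 2 in GCI 1, GCI 2 and GCI 3, without overlap (two-sided exact permutation p = 0.1; edgeR without a filter, log2 difference −1.99, adjusted p = 0.220, Benjamini-Hochberg). Its 0 in GCI 1 allows up to 2.01 CPM at 3 counts, and its exact Poisson 95% interval reaches 2.47 CPM. miR-1264-3p, from the same hairpin, had 4 to 8 counts in sham libraries and 4 to 9 after ischemia-reperfusion. miR-764-3p had 3 to 6 and 1 to 3 counts, and miR-1912-3p 3 to 4 and 5 to 8. In the edgeR fit without a filter their log2 differences were −1.36 and 0.86 (Benjamini-Hochberg adjusted p = 0.413 and 0.483). In CPM these last 2 do not overlap between the groups either, as for 21.8% of tested miRNAs, although neither passed the filter for testing. For miR-1912-3p the gap was small, 2.30 CPM in Sham 7 against 2.41 CPM in GCI 3, and the exact permutation p was 0.3. At such counts no pattern along the host gene could be read. The choroid plexus list, which adds the miR-204 and miR-211 arms, had 5 tested of 10 measured names, with 0 called by edgeR (1 at an unadjusted p under 0.05), DESeq2 or limma-voom, 3 log2 differences above 0 and 2 below.

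miRNAs of ciliated cells were followed because the ependyma lining the ventricles is ciliated and lies beside the choroid plexus, whose own cells also carry cilia. The miR-34b, miR-34c and miR-449 group promotes the formation of multiple cilia. Of 9 names listed, 6 were measured and 4 tested, of which 0 passed with edgeR, where 1 had an unadjusted p under 0.05, 0 with limma-voom and 0 with DESeq2. miR-34c-5p stood at 1535, 1217 and 1564 CPM in Sham 3, Sham 6 and Sham 7 and at 1959, 2006 and 3159 CPM in GCI 1, GCI 2 and GCI 3. The groups do not overlap, as for 10.2% of all tested miRNAs in this direction, and here GCI 2 was as high as GCI 1. Its log2 difference was 0.72 ± 0.24 (Benjamini-Hochberg adjusted p = 0.162, edgeR), against 0.90 for miR-448-3p, −0.34 for miR-204-5p and 0.14 for miR-1298-5p. miR-34b-5p measured 239 ± 25.1 and 419 ± 239 CPM (SD, n = 3 each), with 687 CPM in GCI 3 and overlapping groups, a log2 difference of 0.81 ± 0.36. miR-34b-3p measured 114 ± 24.4 and 151 ± 15.9 CPM, also overlapping. miR-34c-3p measured 34.0 ± 7.70 and 34.4 ± 8.53 CPM, a log2 difference of 0.0029 that turned negative with total-count scaling and limma-voom. The median over the 4 tested was 0.57. miR-449a-5p, too low for the edgeR filter, had 3, 4 and 8 counts in Sham 3, Sham 6 and Sham 7 and 33, 7 and 30 in GCI 1, GCI 2 and GCI 3, with GCI 2 inside the sham range. DESeq2, run on all 622 names, called it (log2 difference 2.20, Benjamini-Hochberg adjusted p = 0.0394), while edgeR without a filter did not (adjusted p = 0.101, log2 difference 2.13). miR-449b, equally rare, had 3, 3 and 9 counts in the sham libraries and 2, 2 and 8 in the GCI libraries, a log2 difference of −0.39 in the same edgeR fit.

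**Figure D4:**
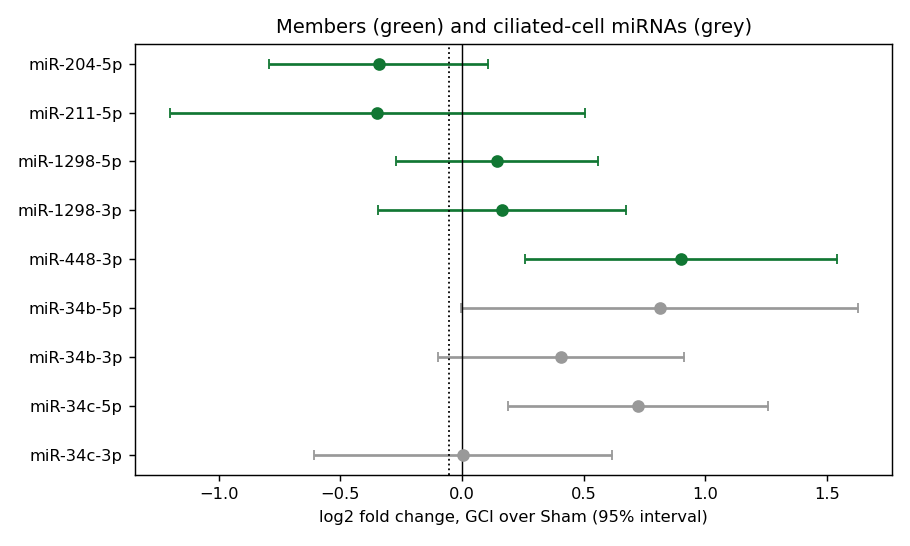
Log2 fold change of GCI (ischemia-reperfusion) over sham (x axis) with its 95% interval from the edgeR fit, for the 5 tested members in green and the 4 tested ciliated-cell miRNAs in grey; the dotted line is the median of all tested miRNAs, −0.054. The unadjusted intervals of miR-448-3p and miR-34c-5p lie above 0, and none of the 9 passed the adjusted threshold.

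Only miRNAs were measured, so the presence of choroid plexus cells could not be checked against mRNA markers. Of the 7 choroid plexus markers listed, 6 were in the tables and none of these was at 0 in any library. miR-764-5p was not analysed here. The 6 include the members miR-204-5p, miR-211-5p, miR-1298-5p and miR-448-3p, and the others, miR-1912-3p and miR-1264-3p, were rare. Their sum thus mostly restates the members and is no separate check for choroid plexus cells. The summed level of the 6 was 1765 to 2080 CPM in sham libraries and 2057 to 2304 CPM after ischemia-reperfusion, which overlap. Summed markers of sensory tissue and of epithelia and pituitary lay further apart. edgeR called 3 of 3 sensory and 5 of 6 epithelial and pituitary markers, against 2.27% of all 440 tested miRNAs. The 3 markers of sensory tissue (miR-183-5p, miR-182-5p and miR-96-5p) summed to 1347 to 3751 CPM in sham libraries and 31659, 11160 and 16785 CPM in GCI 1, GCI 2 and GCI 3. The 6 markers of epithelia and pituitary summed to 669 to 3484 CPM and 10488 to 19344 CPM. The 3 oligodendrocyte markers summed to 861 to 898 CPM in sham libraries and to 2295, 878 and 1477 CPM in GCI 1, GCI 2 and GCI 3. The 5 neuron markers summed to 92258 to 108813 CPM and 86568 to 96933 CPM, the 2 astrocyte markers to 7737 to 9466 CPM and 7044 to 9760 CPM, the 5 leukocyte and microglia markers to 411 to 484 CPM and 419 to 740 CPM and the 3 red blood cell markers to 391 to 449 CPM and 405 to 551 CPM. Each of these 4 overlapped between the groups. The 5 measured markers of ciliated cells summed to 1545 to 1972 CPM and 2421 to 4038 CPM, without overlap. Most of this sum was miR-34c-5p, so it is not a separate observation. Among the GCI libraries GCI 1 was highest and GCI 2 lowest, as for miR-448-3p, in the sums for sensory tissue, oligodendrocytes, leukocytes and microglia, and red blood cells. The other sums had a different order. Those for choroid plexus, ciliated cells and astrocytes were highest in GCI 3, and those for neurons and for epithelia and pituitary were lowest in GCI 3. None of the measured markers was at 0 in any library, and their part in the miR-448-3p difference was not tested.

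The miRNAs most like a member were taken as those with the smallest root mean square difference of log2 CPM over the 6 libraries, each miRNA centred on its own mean, among 215 others with a mean of at least 100 CPM. For miR-204-5p these were miR-129-1-3p (0.039), miR-30c-5p (0.084), miR-129-2-3p (0.0998), miR-335-5p (0.117) and miR-15a-5p (0.120), against a median of 0.341 over all 215. For miR-1298-5p they were miR-344d-3p (0.074), miR-384-3p (0.104), miR-24-3p (0.108), miR-185-5p (0.111) and miR-7b-5p (0.122), with a median of 0.320. For miR-448-3p, added after its values were seen, they were miR-140-3p (0.094), miR-1839-5p (0.202), miR-362-3p (0.215), miR-192-5p (0.219) and miR-199a-3p (0.222), with a median of 0.611. None of these 3 lists held another member; miR-211-5p and miR-448-5p were below the minimum level, and no lists were made for the other members. miR-448-3p stood 0.481 from miR-1298-5p, 0.421 from miR-1298-3p and 0.752 from miR-204-5p, each further than the arms of miR-1298 from each other (0.222). The distance of 0.481 lies below the median of 0.611 for miR-448-3p but above that of 0.320 for miR-1298-5p. Nearness here describes these 6 libraries, and the groups, the libraries and their scaling are shared by all miRNAs.

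**Figure D5:**
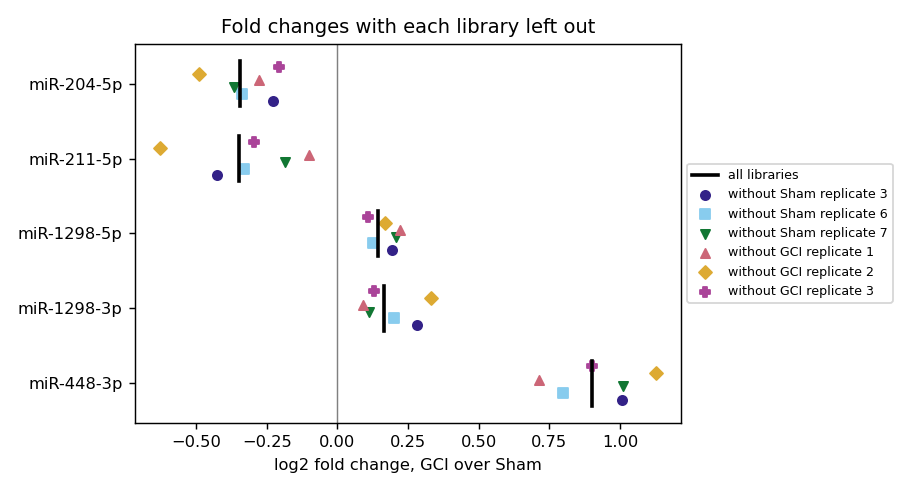
Log2 fold change of GCI (ischemia-reperfusion) over sham (x axis) for the 5 tested members with all libraries (black bar) and with each library left out (coloured points). Every point keeps the sign of its black bar; miR-448-3p ranges from 0.71 to 1.13 and miR-204-5p from −0.49 to −0.21, and leaving out GCI 2 gives the value furthest from 0 for these 2.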

How the data were processed

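The authors deposited raw counts of reads for each mature miRNA, 1 table of 727 rows per library, as the values show. Per the labels' protocols, libraries were made with the NEBNext small RNA kit from 1 µg of total RNA and cut to fragments of 135 to 155 bp (small RNAs of 15 to 35 nt). Per the submitters' processing notes, cutadapt and Bowtie were used; the sources used here give neither their versions nor the miRNA reference. Of rows that repeat a name, the one with most counts was used, leaving 622 names; no member was repeated.

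Counts were tested with edgeR 4.0.16 (R 4.3.3): filterByExpr defaults (440 names kept), TMM, the quasi-likelihood test with group alone, and Benjamini-Hochberg adjustment over all 440. Standard errors come from the F statistic. The fit was also run on simulated counts, drawn with the spread that the same fit estimated and with no library unlike its group. That run does not test how far the calls depend on GCI 2. Permutation tests (scipy 1.17.1) used log2 CPM with a prior count of 2, log2 of summed CPM without a prior count, or log2 ratios. p-values measure only the spread between these libraries, which may be technical. DESeq2 1.42.0, limma-voom (limma 3.58.1), other scalings, filters and left-out libraries were alternatives.

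The members and lists were chosen with earlier results of these data known. The text names every member, all measured names of the lists, and the 5 miRNAs most like miR-204-5p and miR-1298-5p.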

Additional observations from a re-analysis of the deposited data

How the results depend on the processing

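Under RLE, upper-quartile and total-count scaling, 2 filters, robust estimation, DESeq2, limma-voom, summed repeated rows, the 5 most abundant miRNAs left out, the miR-183 and miR-200 rows removed, and each library left out in turn, the 5 tested members kept their direction; miR-211-5p could not be fitted with the filter of 10 CPM. With all libraries in, the log2 difference ranged from 0.86 to 0.97 for miR-448-3p (adjusted p 0.0545 with DESeq2 to 0.197 with limma-voom), from −0.37 to −0.27 for miR-204-5p, from −0.40 to −0.29 for miR-211-5p, from 0.12 to 0.21 for miR-1298-5p and from 0.13 to 0.23 for miR-1298-3p. With single libraries left out it ranged from 0.71 to 1.13 for miR-448-3p (adjusted p 0.0104 to 0.460), from −0.49 to −0.21 for miR-204-5p, from −0.63 to −0.10 for miR-211-5p, from 0.11 to 0.22 for miR-1298-5p and from 0.090 to 0.33 for miR-1298-3p.

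The number of miRNAs called, 10, was 4 with RLE or without the 5 most abundant, 25 with DESeq2, 0 once the miR-183 and miR-200 rows, which hold the 10, were removed, and 0 to 100 with single libraries left out (0 without sham library 6 or GCI library 3, 1 without GCI library 1, 100 without GCI library 2). Members called in the choroid plexus and Htr2c lists ranged from 0 to 1, and in the ciliated list from 0 to 2, with single libraries left out; DESeq2 called 1 in the ciliated list, miR-449a-5p, which the edgeR filter left out. Ciliated miR-34c-3p, at a log2 difference of 0.0029, turned to −0.030 with total counts, −0.0031 with limma-voom and as low as −0.20 (up to 0.23) with single libraries left out. The log2 ratio difference of the miR-1298 arms, −0.00038, was 0.0029 with a pseudocount of 5 and −0.17 to 0.16 with single libraries left out; that of miR-204-5p to miR-211-5p was −0.049 and −0.20 to 0.24. The other 3 ratios kept their sign, with miR-448-3p to miR-1298-5p at 0.46 (without GCI library 1) to 0.98 (without library 2). The cause of these changes was not tested. Alternatives chosen after seeing the data were the ratios named as such. No paired analysis was possible because the groups share only 1 replicate number.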
